A study of Arabidopsis thaliana with 4 samples.

Results

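The genes described here encode the folding, quality control and stress signalling machinery of the endoplasmic reticulum (ER) of Arabidopsis thaliana. They are 35 genes chosen by locus: the chaperones BIP1 to BIP3 and their partners, the calnexins and calreticulins, protein disulfide isomerases and their oxidases, components of ER-associated degradation (ERAD), the cell death suppressor BI-1, and the sensors and transcription factors of the unfolded protein response (UPR). All 35 had a probe among the 25356 genes on the array, with 52 probes in all, and all 35 were well above background on all 4 arrays, so each was among the 20835 genes tested.

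The arrays compared whole seedlings of the ced2 mutant with a wild type (WT) that carries luciferase under the NCED3 promoter (NCED3pro:LUC), both of ecotype gl1-Col0. The labels name this transgene for WT and not for ced2. Seedlings of both genotypes were 14 d old and had spent 6 h in a 40% solution of polyethylene glycol (PEG), which draws water out of tissue. Each of the 2 RNA samples of a genotype pooled 20 plants and was hybridised to 1 one-colour array. The labels do not give the lesion in ced2, and no seedlings without PEG were analysed here, so the values compare genotypes under stress and not a response to it.

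Proteins that enter the ER are folded by the HSP70 chaperone BiP, by lectins that bind sugar-tagged chains, and by enzymes that form disulfide bonds. Chains that fail to fold are passed to ERAD, which moves them to the cytosol for destruction. When unfolded chains build up, IRE1 splices the mRNA of the transcription factor bZIP60, and bZIP28 and bZIP17 travel to the Golgi to be cut free by proteases. These factors then switch on chaperone genes in the UPR, with BIP3 as a widely used marker in Arabidopsis.

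Which genotype belongs to which values is not settled by the deposited data. The directions below follow the labels of the scanner files. Each of the 4 columns in the authors' value table held the values of an array whose file bears the opposite genotype (r = 0.999999 for each), so under the labels of that table every direction turns. In the scanner files labelled ced2, NCED3, the ABA synthesis gene whose promoter drives the reporter, was 2.51-fold lower, and the vacuolar sorting receptor gene VSR1 was lower by 12.7-fold (limma adjusted p = 0.000161 and 0.00016). Levels below are log2 of the spot signal minus the array's 75th percentile, so that 0 is as bright as that percentile, and differences are ced2 minus WT. The arrays of a genotype lay close together: the 35 genes differed by a median of 0.018 between the ced2 arrays and 0.033 between the WT arrays, against a median absolute difference of 0.35 from ced2 to WT, which is close to the 0.362 of all genes tested. All p-values are set against this small spread, and 77.9% of all genes tested had an adjusted p under 0.05, the threshold used here.

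The luminal folding machinery was mostly higher in ced2 and the degradation genes were lower. Of the 35 genes, 23 rose, 10 fell and 2 did not pass, where 42.4% of all genes tested rose and 35.6% fell. All of the disulfide genes (9 of 9) and 7 of 8 chaperones rose, as did 4 of 6 genes of the lectin cycle. All 4 degradation genes and BI-1 fell, and the sensors and factors split into 3 higher, 2 lower and 2 that did not pass. The differences were moderate: the median was 0.26 for the 35 genes and 0.05 for all genes tested. On the brightest probe of each gene, which represents it, none of the 35 rose by 2-fold or more, where 8.01% of all genes did. Only CRT3 fell by as much, where 3.32% of all genes did. On a dimmer probe SHD and CNX1 rose past 2-fold, at 1.11 and 1.05, and CRT3 fell by less, at -0.87. The 2 arrays of ced2 did not overlap with the 2 of WT for any of the 35, but this was so for 90.2% of all genes tested.

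**Figure D1:**
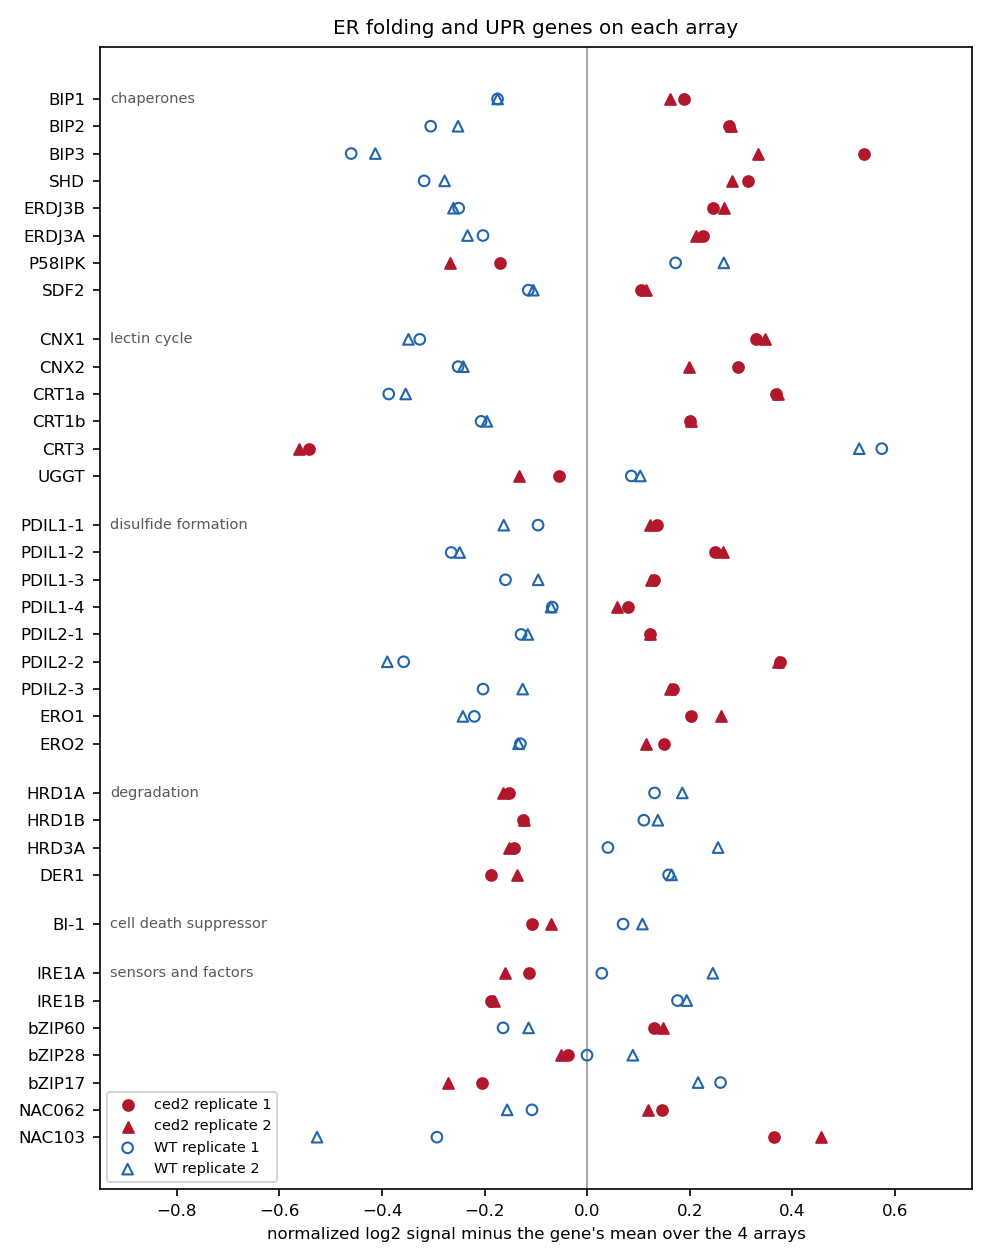
Normalized log2 signal of each gene on each array, minus that gene's mean over the 4 arrays (x axis), with the genes grouped by role (y axis). Filled red symbols are the 2 ced2 arrays and open blue symbols the 2 WT arrays. The colours change sides between the disulfide genes, where ced2 lies to the right for all 9, and the degradation genes, where it lies to the left for all 4.

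Of the 8 chaperones, 7 rose. BIP3 (AT1G09080), a BiP gene, had levels of -3.69 and -3.89 on the ced2 arrays, against -4.69 and -4.64 on the WT arrays, a 1.83-fold difference (0.87 ± 0.08 SE on the log2 scale, adjusted p = 0.00205). Its spots were dim, with processed signals of 289 and 300.1 in ced2 and 130 and 112 in WT before scaling. With normexp background correction followed by quantile normalization (normexp below), the difference was 0.38 (adjusted p = 0.00125). That was below those of SHD, BIP2, ERDJ3B and BIP1. With quantile normalization alone BIP3 rose by 0.63, so the order of the rises depended on the setting. BIP2 (AT5G42020), one of the constitutive BiP genes, had levels of 1.78 and 1.78 in ced2 and of 1.20 and 1.25 in WT, and rose 1.47-fold (adjusted p = 0.000526). BIP1 (AT5G28540) had levels of 1.34 and 1.31 in ced2 and 0.97 on both WT arrays, a rise of 0.35. BIP1 and BIP2 are near copies, and hybridization of one transcript to the probe of the other cannot be told apart here.

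Most partners of BiP rose too. SHD (AT4G24190), the HSP90 of the ER, rose 1.51-fold, with levels of 3.38 and 3.35 in ced2 and 2.75 and 2.79 in WT (0.60 ± 0.03 SE, adjusted p = 0.000444). ERDJ3B (AT3G62600), a J-domain protein that hands clients to BiP, had levels of 0.23 and 0.25 in ced2 and -0.27 and -0.28 in WT (adjusted p = 0.000398). SDF2 (AT2G25110), which forms a complex with ERDJ3B and BiP, rose by 0.22, with 1.80 and 1.81 in ced2 and 1.58 and 1.59 in WT, or by 0.13 when arrays were centred on the median gene. ERDJ3A (AT3G08970), a J-domain protein needed by pollen tubes under heat, rose by 0.44, or by 0.22 with normexp.

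P58IPK (AT5G03160), another J-domain co-chaperone of the ER, went the other way. Its levels were 2.65 and 2.55 in ced2, against 2.99 and 3.09 in WT, a fall of 1.36-fold (-0.44 ± 0.06 SE, adjusted p = 0.00442). It was the one chaperone of the 8 that was lower.

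The lectin cycle holds sugar-tagged chains until they fold, and its genes divided. CRT1a (AT1G56340), a calreticulin, rose, with levels of 1.45 and 1.46 in ced2 and 0.70 and 0.73 in WT, or 1.67-fold (0.74 ± 0.02 SE, adjusted p = 0.000256). The membrane-bound lectin CNX1 (AT5G61790) had levels of 1.03 and 1.05 in ced2 and 0.38 and 0.35 in WT, a rise of 0.68 (adjusted p = 0.000274). CNX2 (AT5G07340), a second calnexin, and CRT1b (AT1G09210), the closest relative of CRT1a, rose by 0.49 and 0.40 (adjusted p = 0.00154 and 0.000546).

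CRT3 (AT1G08450), a calreticulin of plants that retains misfolded receptor kinases and is needed for the immune receptor EFR to mature, fell furthest of all 35 genes. Its levels were 1.99 and 1.97 in ced2 and 3.10 and 3.06 in WT, a fall of 2.15-fold (-1.10 ± 0.03 SE, adjusted p = 0.000193). Within one family of lectins, then, 2 calreticulins were higher in ced2 and CRT3 was lower. UGGT (AT1G71220), the glucosyltransferase that re-tags unfolded chains for another round, had levels of 0.18 and 0.10 in ced2 and 0.32 and 0.34 in WT. It fell by 0.19 (adjusted p = 0.0146). That call was lost when ced2 replicate 2, WT replicate 1 or WT replicate 2 was left out, at adjusted p of 0.0517, 0.0580 and 0.0688. Like CRT3, UGGT serves in the retention of faulty receptor kinases.

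Every gene of disulfide formation rose, by 0.14 to 0.75. PDIL2-2 (AT1G04980), a disulfide isomerase, had levels of -0.39 and -0.40 in ced2, against -1.13 and -1.16 in WT, a 1.68-fold rise (0.75 ± 0.02 SE, adjusted p = 0.00025). PDIL1-2 (AT1G77510), also an isomerase, had levels of -0.30 and -0.28 in ced2 and -0.81 and -0.80 in WT (0.51 ± 0.02 SE, adjusted p = 0.000388). The arrays of a genotype differed by at most 0.03 for each of these 2 genes.

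ERO1 (AT1G72280) and ERO2 (AT2G38960), the oxidases that recharge the isomerases, rose by 0.46 and 0.26 (adjusted p = 0.000901 and 0.00209). ERO1 had levels of -2.64 and -2.59 in ced2 and -3.07 and -3.09 in WT, and its rise was 0.26 with quantile normalization and 0.23 with normexp. The isomerases PDIL2-3 (AT2G32920), PDIL1-1 (AT1G21750), PDIL1-3 (AT3G54960) and PDIL2-1 (AT2G47470) rose by 0.33, 0.26, 0.26 and 0.25. For PDIL1-3 and PDIL2-1 the rises were 0.17 and 0.16 when arrays were centred on the median gene.

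PDIL1-4 (AT5G60640) rose by a small amount, with levels of 2.51 and 2.49 in ced2 and 2.36 on both WT arrays (0.14 ± 0.02 SE, adjusted p = 0.00881). Its size depended on the setting: it was 0.05 and did not pass when arrays were centred on the median gene (adjusted p = 0.0997), 0.22 with quantile normalization, 0.23 with normexp and 0.31 over the mean of its probes. The call was also lost without ced2 replicate 1 (adjusted p = 0.0671).

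**Figure D2:**
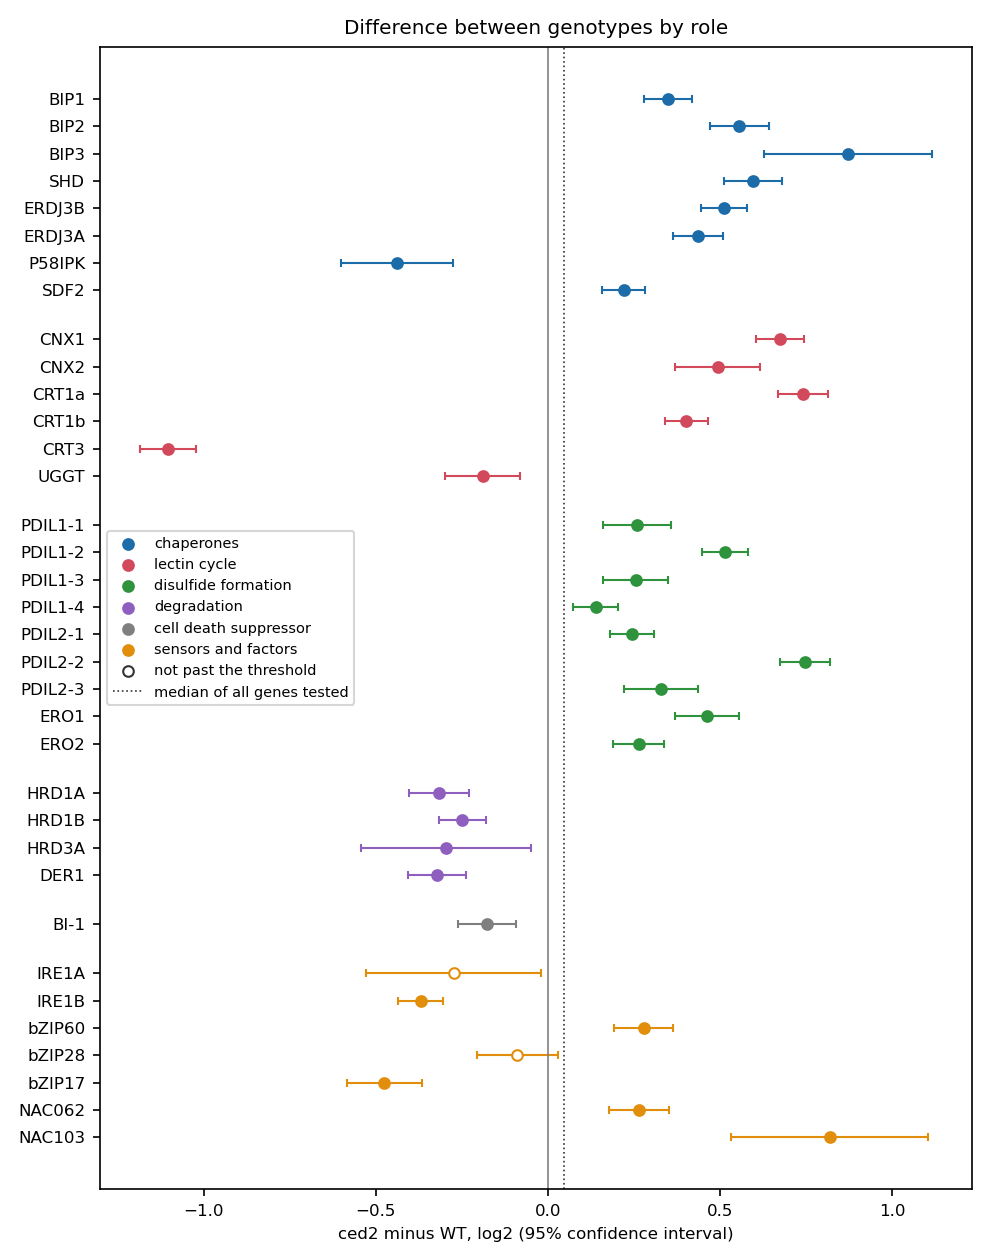
Difference of each gene, ced2 minus WT on the log2 scale (x axis), with its 95% confidence interval from limma, by role (y axis). Open symbols are the 2 genes that did not pass, IRE1A and bZIP28, and the dotted line is the median of all genes tested, 0.05. CRT3, at -1.10, stands furthest from 0.

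The degradation genes fell together and by similar amounts, from -0.25 to -0.32. DER1 (AT4G29330), a derlin of the channel through which chains leave the ER, had levels of -1.28 and -1.23 in ced2 and -0.93 on both WT arrays (-0.32 ± 0.03 SE, adjusted p = 0.00171). HRD1A (AT3G16090), a ubiquitin ligase of the ER membrane, had levels of -1.78 and -1.79 in ced2, against -1.49 and -1.44 in WT (-0.32 ± 0.03 SE, adjusted p = 0.00197). Its paralogue HRD1B (AT1G65040) fell by 0.25, with 0.29 on both ced2 arrays and with 0.53 and 0.55 in WT (adjusted p = 0.00202).

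HRD3A (AT1G18260), which brings clients to the ligase, had levels of -1.40 and -1.41 in ced2, while the WT arrays lay apart, at -1.22 and -1.01. It fell by 0.30 (adjusted p = 0.0404), by 0.19 without WT replicate 2 (adjusted p = 0.0182) and by 0.17 over the mean of its probes, and the call was lost without ced2 replicate 1 or ced2 replicate 2 (adjusted p = 0.12 and 0.127) and when dim probes were kept (adjusted p = 0.0792). These falls were seen after scaling. The ced2 arrays were brighter as a whole, and the unscaled signals of all 4 degradation genes overlapped between the genotypes. Those of HRD1A were 1085 and 1292 in ced2 and 1186 and 1034 in WT. Among all the genes that fell, only CRT3 had both ced2 signals below both WT signals before scaling. All 4 degradation genes were also past the threshold and lower with quantile normalization, with normexp and when arrays were centred on the median gene.

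BI-1 (AT5G47120), an ER membrane protein that holds back cell death under ER stress, had levels of 2.89 and 2.93 in ced2 and 3.07 and 3.11 in WT. It fell by 0.18 (adjusted p = 0.00877), or by 0.11 with quantile normalization. The call was lost with normexp (-0.06, adjusted p = 0.23) and without ced2 replicate 1 (adjusted p = 0.0555).

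The sensors and transcription factors did not move as a class. NAC103 (AT5G64060), a factor that bZIP60 (AT1G42990) switches on in the Arabidopsis UPR, rose, with levels of -4.42 and -4.33 in ced2 and -5.08 and -5.31 in WT, or 1.77-fold (0.82 ± 0.10 SE, adjusted p = 0.00369). Like BIP3 it was dim, with unscaled signals of 174 and 222 in ced2 and 98.9 and 70.7 in WT, and with normexp it rose by 0.32 (adjusted p = 0.000592).

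bZIP60, the factor whose mRNA is the substrate of IRE1, had levels of 3.27 and 3.28 in ced2, against 2.97 and 3.02 in WT (0.28 ± 0.03 SE, adjusted p = 0.00261). It has 1 probe, which gives an amount of transcript and not its splicing. NAC062 (AT3G49530), a membrane-tethered factor that enters the nucleus under ER stress, had levels of 2.42 and 2.40 in ced2 and of 2.17 and 2.12 in WT (0.26 ± 0.03 SE, adjusted p = 0.00321). Both ced2 arrays lay above both WT arrays for these factors, but the genotypes did not overlap for 90.2% of all genes tested.

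The sensor IRE1B (AT5G24360) fell, with 0.37 on both ced2 arrays, against 0.73 and 0.75 in WT (-0.37 ± 0.02 SE, adjusted p = 0.000697). IRE1A (AT2G17520), its paralogue, had levels of 1.66 and 1.61 in ced2 and of 1.80 and 2.02 in WT and did not pass (-0.27, 95% interval -0.53 to -0.02, adjusted p = 0.0527). Its WT arrays lay apart. It passed when WT replicate 1 was left out, at -0.38 (adjusted p = 0.00981), or WT replicate 2, at -0.17 (adjusted p = 0.0434), and it was -0.15 with normexp (adjusted p = 0.224). It also passed with a filter asking for all 4 arrays (adjusted p = 0.0363), with an intensity trend (adjusted p = 0.0164) and with centring on the median gene (-0.36, adjusted p = 0.0253).

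bZIP17 (AT2G40950), a membrane-bound factor of salt and ER stress, fell, with levels of -0.58 and -0.64 in ced2 and -0.11 and -0.16 in WT (-0.48 ± 0.04 SE, adjusted p = 0.00124). bZIP28 (AT3G10800), its close relative in the UPR, did not pass, with 2.16 and 2.14 in ced2 and 2.19 and 2.28 in WT (-0.09, 95% interval -0.21 to 0.03, adjusted p = 0.122). It was 0.0027 with quantile normalization, -0.01 with normexp and -0.05 with the percentile taken over probes above background, and it passed when arrays were centred on the median gene (-0.17, adjusted p = 0.0224). Leaving out WT replicate 1 gave -0.13, which passed (adjusted p = 0.0368), and leaving out WT replicate 2 gave -0.04, which did not (adjusted p = 0.249).

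**Figure D3:**
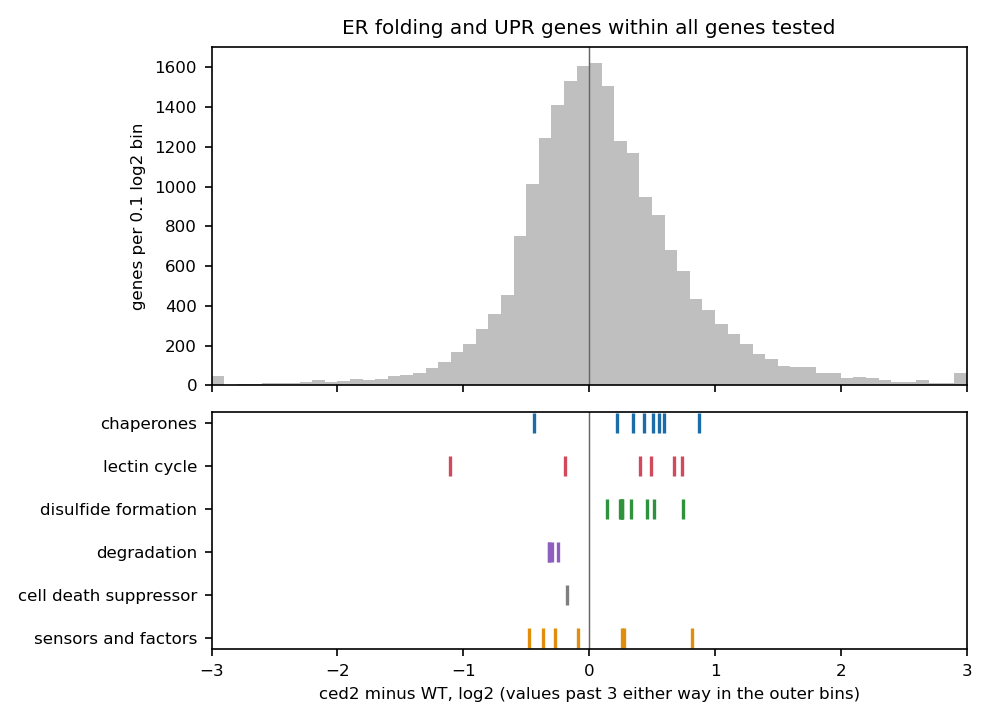
Upper panel: number of genes (y axis) per bin of 0.1 in the log2 difference ced2 minus WT (x axis) over the 20835 genes tested. Lower panel: the same difference for each of the 35 genes on its brightest probe, by role. All but CRT3 lie within 2-fold of no difference, in the body of the distribution.

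Set within the differences of all genes tested, BIP3, NAC103, PDIL2-2 and CRT1a stood at percentiles 89.2, 88.1, 86.3 and 86.1, and CRT3 at percentile 3. With quantile normalization and with normexp CRT1a, at 0.78 and 0.73, was above BIP3, at 0.63 and 0.38. Under the labels of the value table these places turn round. The 4 degradation genes lay between percentiles 23.1 and 28.

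Brightness on the array moved with the difference over all genes, which is given here because most of the 35 probes are bright. With the genes tested split by mean level into 3 classes of 6945, the median difference was -0.09 in the brightest class, where 32.3% rose, and 0.28 in the dimmest, where 50.8% rose. Of the 35 genes, 20 lay in the brightest class, where 13 rose and their median was 0.25. All 3 in the dimmest class, BIP3, NAC103 and ERO1, rose. The part of brightness in these differences was not tested.

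Several genes were read by more than 1 probe, which repeats the measurement on the same RNA. This was so for 14 of the 35 genes, and 13 of the 14 had the same direction on every probe. The fall of CRT3 was seen on its second probe, at -0.87 against -1.10. BI-1 gave -0.17 to -0.18 on 3 probes, and BIP3 gave 0.87 and 0.88 on 2. SHD and CNX1 gave larger rises on their dimmer probe, 1.11 and 1.05, than the 0.60 and 0.68 given above. PDIL1-3 was the exception: its 2 brighter probes gave 0.26 and 0.47 and its dimmest -0.26, and the call was lost over the mean of its probes (0.16, adjusted p = 0.0709). HRD3A gave only -0.05 on its second probe, where the ced2 arrays read -1.97 and -2.03 and the WT arrays -1.93 and -1.98, so that the genotypes overlapped.

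**Figure D4:**
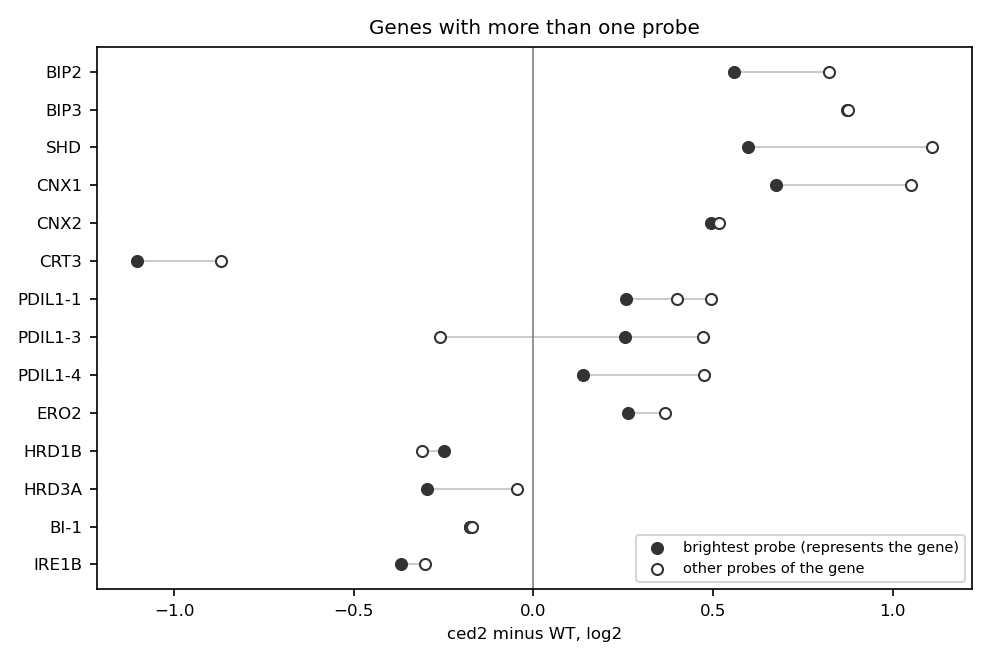
Log2 difference ced2 minus WT (x axis) on every probe of the 14 genes that have more than 1 probe (y axis). Filled circles are the brightest probe, which represents the gene, and open circles the other probes. The line crosses 0 for PDIL1-3 alone.

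The tissue was whole seedlings, and most of its root markers were higher in ced2. Of 12 root markers, 10 rose, 1 fell and 1 did not pass, with a median of 1.09, where 42.4% of all genes tested rose. Their summed linear level was 45.1 to 45.9 in ced2 and 23.3 to 23.8 in WT. Most of that sum was PYK10, a glucosidase of root ER bodies, with levels of 5.20 and 5.15 in ced2 and 4.25 and 4.29 in WT. PYK10 rose by 0.91 (adjusted p = 0.000267). Of 10 leaf and photosynthesis markers, 1 rose, 3 fell and 6 did not pass, with a median of -0.27. This direction depended on the scaling: with quantile normalization 3 rose and 0 fell (median 0.08), and with normexp 5 rose and 0 fell (median 0.09). Their sum was 700 to 809 in ced2, against 869 to 991 in WT, in the same units. Of these 22 markers, only the nitrate transporter gene NRT2:1, a root marker, was not above background in a genotype, ced2. The part of the root in the differences of the ER genes was not tested. In whole seedlings, more cells with a transcript and more transcript per cell cannot be told apart.

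Neighbouring steps of the ER pathway also divided. Oligosaccharyltransferase is the complex that adds the sugar tag read by the lectins. It rose in 8 of 9 tested subunits and 1 did not pass, with a median of 0.42, where 42.4% of all genes tested rose. Its subunit gene DAD2 rose by 0.69, with levels of -0.10 and -0.12 in ced2 and -0.79 and -0.80 in WT (adjusted p = 0.000245). The subunit genes AT2G01720 and HAP6 rose by 0.50 and 0.45. Of 8 genes that build and trim the tag, 5 were higher, 1 was lower and 2 did not pass. EBS3 and ALG10, which build the tag, rose by 0.58 and 0.39, and ALG12 fell by 0.33 (adjusted p between 0.000892 and 0.00208).

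Of 8 further ERAD genes tested, 7 fell and 1 did not pass, with a median of -0.39. UBC32, the ubiquitin-conjugating enzyme of ERAD, fell by 0.99, with levels of 3.89 and 3.86 in ced2 and 4.85 and 4.87 in WT (adjusted p = 0.000199). DER2.1, a second derlin, fell by 0.59, and the mannosidase MNS5 (AT1G27520), of a family that marks chains for degradation, fell by 0.49 (adjusted p = 0.000468 and 0.000543). With the 4 degradation genes above, this makes 11 of 12 lower and none higher, on a background of 35.6% lower. Both lists were chosen with earlier results of these data known, so this count is a description and not a test. The counts of the further ERAD genes were 7 lower and 1 not past with quantile normalization and with normexp too.

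Of 7 other regulators of the UPR tested, 2 rose, 3 fell and 2 did not pass, and their median was 0.05, against -0.10 with quantile normalization and -0.09 with normexp. NF-YC2, a subunit of the NF-Y complex that works with bZIP28, rose by 1.18, and the NF-Y subunit gene NF-YB3 fell by 0.70 (adjusted p = 0.000232 and 0.000252). bZIP49, the other that rose, was not well above background in WT and entered the test only through ced2. It was at least 3.45-fold higher in ced2 (measured means -6.04 in ced2 and -8.19 in WT). Its adjusted p of 0.00853 rests on WT signals near background and is not read as support for the rise. NAC089, a factor of cell death under ER stress, and S1P, a Golgi protease, fell by 0.48 and 0.35 (adjusted p = 0.000706 and 0.00102). These 2 were named after their values were seen. Of 6 other isomerase-like genes, 2 rose, 1 fell and 3 did not pass, all between -0.13 and 0.23. With quantile normalization 3 rose and 0 fell, and with normexp 1 rose, 0 fell and 5 did not pass. The test of their difference from the 7 isomerases above, all of which rose, was not made.

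**Figure D5:**
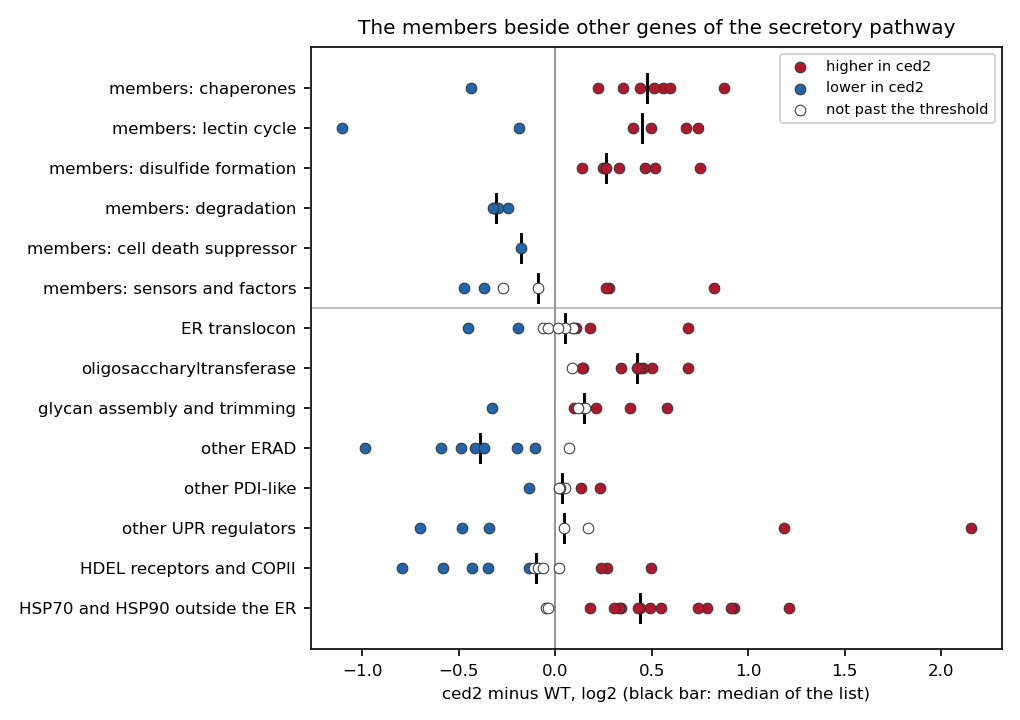
Log2 difference ced2 minus WT (x axis) of the genes tested in each role of the 35 genes (above the line) and in further lists of the secretory pathway and its cytosolic and organellar counterparts (below it). Red is higher in ced2, blue lower, white not past the threshold, and the black bar is the median, which is -0.31 for the 4 degradation genes and -0.39 for the further ERAD genes. The point furthest right is bZIP49 at its measured difference of 2.15, which is not well above background in WT.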

How the data were processed

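Total RNA was measured on 4 one-colour (Cy3) Agilent arrays, 2 of ced2 and 2 of WT. The submitters' processing notes name Agilent Feature Extraction 10.7.1.1. The deposited intensity is each spot's processed signal, background-subtracted per the file headers, on a linear scale and not normalized between arrays, with flags (0 or 1, other values) for spots above background or outlying. The authors' value table holds log2 values of unstated scaling and centring. Set to the same scale and centred per probe, the scanner values matched it within 0.01, but under the other genotype's labels, so its direction is unsettled. Its column medians were 0.01 and -0.03 (columns labelled ced2, replicates 1 and 2) and 0.08 and -0.03 (columns labelled WT).

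Here each array's 75th percentile over 43533 probes was taken off its log2 signals, without control and outlier spots, and 70 probes with no usable spot on an array were dropped. The 75th percentile was 3724 and 4465 in ced2 and 3342 and 2807 in WT before scaling, and no spot of the 35 genes was saturated. Accessions were matched to a RefSeq gene table (TAIR10.1), which named 34236 probes and left 9297 unnamed. The array's build is older, so no coordinates are given. Each gene was represented by its probe with the highest mean and tested where that probe was above background on both arrays of a genotype. limma 3.58.1 (lmFit, eBayes, R 4.3.3; 2 residual degrees of freedom and 1.49 prior) gave 2-sided p-values, Benjamini-Hochberg adjusted over 20835 genes. A fold marked "at least" sets the bright group against a floor on each dim array, its lowest signal well above background or that of the probe itself if higher. The fit was tested on simulated data. The number of arrays limits the precision, and the replicates are biological per the labels.

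The members and lists were chosen with earlier results of these data known. Any of the 35 members may be named, and of each further list at most the 3 genes past the threshold with the largest difference. CNX2, MNS5, SEC31B and SEC24A are common names of their loci; NAC089, S1P, PYK10 and NRT2:1 were named after their values were seen. All arrays lay on 1 slide and 1 scan, ced2 at positions 4 and 3 and WT at 1 and 2. Genotype and position on the slide therefore cannot be told apart. Alternatives were quantile normalization, 2 other scalings, normexp, other filters on dim probes, the value table and an intensity trend. Others were the mean over probes, a replicate block, an adjusted p of 0.01 and leaving out each array. The normexp setting (offset 50, on median intensities) was followed by quantile normalization, so it shares its scaling with the quantile setting. Sequence features of the genes were not analysed here.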

Additional observations from a re-analysis of the deposited data

How the results depend on the processing

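Of the 35 genes, 34 kept their direction in all 14 alternatives that use the scanner files, and 28 kept their call. Settings that changed only a filter, the replicate block, the intensity trend or the p threshold left each gene's difference as it was. Only the call, and not the direction, could change in those settings. bZIP28 turned to 0.0027 with quantile normalization. The median difference, 0.26, was 0.304 with quantile normalization, 0.302 with the percentile over probes above background, 0.178 with arrays centred on the median gene, 0.294 with normexp and 0.307 over the mean of the probes. The number not past, 2, was 1 with that centring, with a filter on all 4 arrays and with an intensity trend, 3 with normexp, without a filter, over the mean of the probes and with a block, and 4 at an adjusted p of 0.01. CRT3 missed 2-fold over the mean of its probes, which left 0 genes 2-fold lower. With 1 array left out, 22 to 23 genes were higher, 8 to 11 lower and 1 to 5 not past, 0 and 1 were 2-fold higher and lower, and the median was 0.252 to 0.270. Under the value table's own labels 10 were higher and 23 lower, 1 was 2-fold higher and 0 lower, and the median was -0.263. With the replicate block 23 were higher and 9 lower, and the call of HRD3A was lost (adjusted p = 0.0572). Same-numbered arrays deviated together by a correlation of 0.047 over all genes tested. With 2 arrays per genotype this cannot settle whether they were paired, and no pairing is known. Centring on the median gene moved the share of higher calls over all genes to 36.5% against 42% lower. Slide as a block was not run, since there was 1 slide.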

Other observations

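Chaperones of the same families outside the ER were also higher in ced2. Of 15 HSP70 and HSP90 genes of the cytosol, chloroplast and mitochondrion, 13 rose, 2 did not pass and none fell, and the median was 0.44. Over all genes tested 42.4% rose and the median was 0.05. The chloroplast HSP70 gene cpHsc70-2 rose, with levels of 0.86 and 0.88 in ced2 and -0.34 on both WT arrays, or 2.32-fold (adjusted p = 0.000166). CR88, the chloroplast HSP90, rose by 0.93 and mtHsc70-1, a mitochondrial HSP70, by 0.91 (adjusted p = 0.000189 and 0.000196).

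Vesicle export and retrieval genes divided, with 3 of 12 higher, 5 lower and 4 not past, and a median of -0.10. SEC31B (AT3G63460) and SEC24A (ERMO2), coat proteins of vesicles that leave the ER, fell by 0.79 and 0.58 (adjusted p = 0.000248 and 0.00113). SAR1B, the coat's GTPase, rose by 0.49 (adjusted p = 0.00153), and in the annotation it is the gene next to CRT1a, which rose by 0.74. The gene on the other side of CRT1a differed by 0.19. Whether these neighbours share regulation was not tested. Of 11 translocon genes tested, 4 rose, 2 fell and 5 did not pass, with a median of 0.05. For 1 of the 2 that fell, unscaled signals were near background, at 15.5 and 18.6 in ced2 and 19.7 and 15.4 in WT. That gene entered the test only through WT, and its call is not read as support for a fall.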
